A study of Drosophila melanogaster with 2 samples.

Results

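Crc peaks at single-gene promoters are the places where the transcription factor Crc was found close to the start of a protein-coding gene. At that start the gene does not share its promoter with a protein-coding neighbour transcribed the other way. The peaks were chosen by position alone: the summit lay within 500 bp of a protein-coding transcript start. No start in that window belonged to a pair of protein-coding genes on opposite strands, transcribed apart, with starts at most 1000 bp apart. By this rule 703 of the 2420 peaks that passed the authors' reproducibility filter were single-gene promoter peaks (29.0%). A further 521 peaks lay at divergent promoters, and 1196 lay more than 500 bp from any such start.

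The data came from chromatin immunoprecipitation with sequencing (ChIP-seq) on whole Drosophila melanogaster embryos of mixed sex, 0 to 24 h old, of a line called crc-MiMIC-GFP. In this line an exon coding for eGFP sits in an intron of crc, so that the gene makes a Crc-eGFP fusion, and the precipitation used an antibody against GFP after sonication to 200 to 800 bp. Both biological replicates carried the tag and formed 1 group, and no library from untagged embryos was analysed here, so nothing below compares conditions. A whole embryo mixes all its cell types and ages, and peaks do not measure expression, so the labelled tissue could not be checked against marker genes.

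Crc is the fly counterpart of ATF4, a basic leucine zipper (bZIP) protein whose translation goes up when the kinases PEK or Gcn2 phosphorylate the initiation factor eIF2. It pairs with other bZIP proteins and binds the C/EBP-ATF response element (CARE), through which ATF4 induces genes of amino acid supply, protein folding and translation control. Fly promoters differ in their core sequences: some hold a TATA box, others the DNA replication-related element (DRE, bound by Dref) or Motif 1 (bound by M1BP), and many developmental and inducible promoters hold GAGA repeats, bound by the GAGA factor that Trl encodes.

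The sequences on which the results turn are shown first, each from one of the strongest eligible peaks holding the element within 100 bp of the summit and outside annotated UTRs, in the direction of the gene (RefSeq copy of dm6). The GAGA repeat, spelled GAGAGA, had the lowest p in both comparisons with other promoters described below, and the capitals mark it or its reverse complement:
gish (chr3R:16280592-16280657, forward strand): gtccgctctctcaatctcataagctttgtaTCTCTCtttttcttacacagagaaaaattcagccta
CG31431 (chr3R:21870577-21870642, forward strand): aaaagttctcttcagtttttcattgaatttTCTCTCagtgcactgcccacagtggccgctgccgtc
Ptpmeg2 (chrX:9640683-9640748, reverse strand): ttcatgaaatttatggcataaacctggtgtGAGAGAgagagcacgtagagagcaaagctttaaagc

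The DRE (TATCGATA), in capitals below, was more frequent at divergent promoters, and these single-gene promoters held it:
CG11151 (chrX:13739434-13739501, forward strand): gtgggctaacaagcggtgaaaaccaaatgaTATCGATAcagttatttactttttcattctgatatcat
eEF1gamma (chr3R:29220101-29220168, forward strand): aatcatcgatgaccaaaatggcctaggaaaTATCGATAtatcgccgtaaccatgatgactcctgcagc
Jwa (chr2L:18705870-18705937, reverse strand): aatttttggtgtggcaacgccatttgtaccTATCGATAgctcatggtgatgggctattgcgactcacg

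The CARE (TGATGNAAC or TGATGNAAT), the element known for ATF4, was rare, and a stronger peak with it, at Tina-1, was not eligible. The third window comes from a peak with a signal of only 84.7, below the median, and the capitals mark the CARE or its reverse complement:
CG1635 (chr3R:31588432-31588500, forward strand): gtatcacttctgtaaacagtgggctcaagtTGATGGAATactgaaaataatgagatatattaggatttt
Jwa (chr2L:18705785-18705853, reverse strand): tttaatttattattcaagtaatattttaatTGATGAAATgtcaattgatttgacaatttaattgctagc
nkd (chr3L:19045564-19045632, reverse strand): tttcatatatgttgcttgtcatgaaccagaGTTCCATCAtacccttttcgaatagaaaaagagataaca

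The 7-mer ACAGTGG, in capitals here or as its reverse complement, had the lowest p among the 7-mers higher at the summits that were not made of A and T alone:
larp (chr3R:28326656-28326722, reverse strand): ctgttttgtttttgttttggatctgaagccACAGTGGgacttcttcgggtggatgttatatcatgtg
Rtnl1 (chr2L:4997715-4997781, reverse strand): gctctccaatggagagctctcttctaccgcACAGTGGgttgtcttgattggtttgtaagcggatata
CG17896 (chrX:494023-494089, reverse strand): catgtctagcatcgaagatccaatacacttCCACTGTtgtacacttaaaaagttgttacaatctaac

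The same 7-mer occurred once more, uncapitalised, in the windows of CG31431 and CG1635 shown for the other elements. The Jwa promoter held both a DRE and a CARE, lying 201 and 116 bp before its start.

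The strongest peak lay 87 bp before the only start of CG14100 (FBgn0036889), at 3L:19590445-19590797 in dm6. Its signal, the authors' own score for a peak, was 571.3 in replicate 1, 623.4 in replicate 2 and 1189.5 in the pooled call. It had the highest signal of all candidates in replicate 1 and ranked 3 in replicate 2 and in the pool. Next came px (plexus, a gene of wing vein patterning) with signals of 344.5 and 600.7 in replicates 1 and 2, and ph-p (polyhomeotic proximal, a Polycomb group gene) with 319.1 and 552.6. CG1888 had 306.7 and 427.4, larp (a La-related RNA-binding protein) 251.2 and 420.8, and gish (gilgamesh, a casein kinase) 253.5 and 412.6. Among the candidates of each library these 6 ranked from 1 to 19 in replicate 1 and from 3 to 15 in replicate 2.

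The 15 strongest single-gene promoter peaks continued with CG31145, GstE13 (a glutathione S-transferase), CG13921, Atf3 (a bZIP factor), MFS10 (a transporter of the major facilitator family), Rtnl1 (a reticulon of the endoplasmic reticulum), Sesn (sestrin, which restrains TOR), CG18549 and cbt (cabut, a zinc finger factor). Their pooled signals ran from 638.8 at CG31145 down to 437.6 at cbt. The lowest signals of 64.0 to 64.1 were at EndoG (a mitochondrial nuclease), at a peak of Hnf4 (a nuclear receptor) and at Best1 (a chloride channel). The reproducibility filter kept peaks down to a signal of 63.98. By the same position rule, candidates at CG4408 (63.96), Pgant1 (63.94) and CASK (63.85) fell just short of it. At the 500 bp limit, omd (500 bp), E(spl)m3-HLH (499 bp) and Samuel (497 bp) were the farthest inside, and peaks 502 bp from a start of rhea and 503 bp from starts of bin3 and Pcyt1 were the nearest outside.

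**Figure D1:**
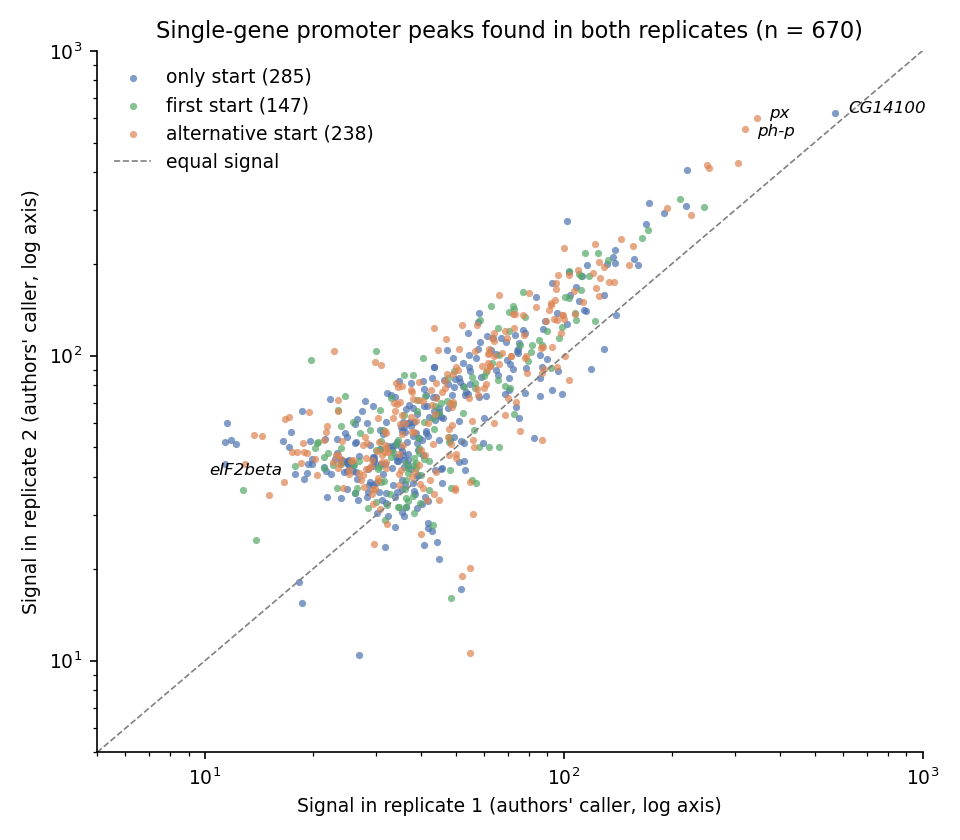
Signal of each single-gene promoter peak in replicate 1 (x axis) and replicate 2 (y axis), both on log axes in the authors' units, for the 670 peaks with a candidate summit in both replicates; colour gives the kind of start and the dashed line marks equal signal. The lists differ in scale, with medians of 41.3 in replicate 1 and 60.6 in replicate 2, so most points lie above the line; CG14100 stands at the upper end, and eIF2beta, at 11.4 and 52.2, lies apart at the left.

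Both replicates showed most of these peaks. The peaks had already passed the authors' reproducibility filter, and each replicate list holds 30000 candidates, so the shares below are no separate test. A candidate summit lay within 100 bp in replicate 1 for 680 of the 703 peaks and in replicate 2 for 693, and 670 had one in both (95.3%, Wilson 95% interval 93.5 to 96.6). No peak lacked a candidate in both. Among the strongest 2420 candidates of each library, 475 peaks were found in both (67.6%, interval 64.0 to 70.9). The shares in both libraries, among all and among the strongest candidates, were 93.1% and 70.6% for divergent promoter peaks. They were 94.8% and 64.1% for peaks away from starts. Over the 670 peaks the median signal was 41.3 in replicate 1 and 60.6 in replicate 2, and the signals had a Spearman rho of 0.73, which describes peaks chosen by their pooled signal and carries no test. The strongest peaks with no candidate in one library were at CG7737 (168.1 in replicate 2, none in replicate 1), CG31886 (87.4 in replicate 1, none in replicate 2) and sea, a mitochondrial citrate carrier (155.5 in replicate 2, none in replicate 1). Read numbers were not stated in the sources used here, and the depth behind each signal is unknown. Intervals cover counting error only, and p-values below take peaks or promoters as units within this pair of libraries.

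Single-gene promoters kept a larger share of their candidates than the pooled list as a whole. Of 4450 pooled candidates that met the same position rule, 703 passed the filter (15.8%, interval 14.8 to 16.9), beside 9.93% of all pooled candidates. The share was 22.3% at divergent promoters (interval 20.7 to 24.0) and 6.80% away from starts (6.44 to 7.18). These shares describe how the signal ranks were spread, since the filter kept the strongest candidates.

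Most summits lay upstream of the start. The median summit was 154 bp before the nearest start (quartiles -267.5 and -57.5 bp), and 589 of 703 were upstream (83.8%). At divergent promoters the median was 69 bp before the start, where a second start on the other side bounds the distance by the rule. Of the 703 summits, 108 lay in an annotated UTR and 576 outside all annotated exons. GstE13 was unusual among the strongest peaks, with its summit 79 bp after the start.

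**Figure D2:**
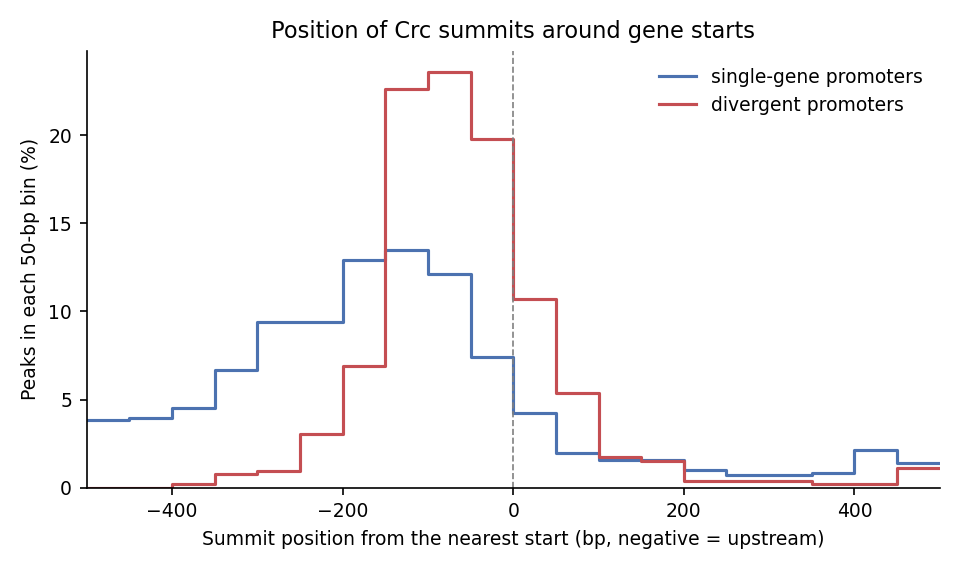
Share of peaks (y axis, %) in each 50-bp bin of distance between summit and nearest start (x axis, bp, negative upstream) for the 703 single-gene and 521 divergent promoter peaks. The single-gene peaks spread over some 300 bp upstream with their highest bin, 13.5%, at 150 to 101 bp before the start, while the divergent peaks reach 23.6% at 100 to 51 bp before it.

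The 703 peaks fell to 650 nearest genes, and 45 genes had more than 1. Ptpmeg2 (a protein tyrosine phosphatase) had 4 peaks: pooled signals of 330.3, 288.1 and 183.5 at alternative starts 18521, 13220 and 8369 bp inside the gene, and 68.6 at its first start. Rtnl1 also had 4, all at alternative starts, with signals of 498.5, 227.6, 109.2 and 80.7. CHES-1-like (a forkhead factor), brwl, dnc (dunce, a cyclic AMP phosphodiesterase) and larp had 3 each. The dnc peaks lay at starts 79628, 118841 and 152967 bp downstream of its first start, with signals of 138.7, 383.7 and 89.5. At larp the alternative start 10176 bp inside the gene had 673.8, beside 146.2 at a nearer alternative start and 93.2 at the first. Among the single-gene promoter peaks of these genes, an inner start held the strongest at Ptpmeg2, Rtnl1, dnc and larp. Rtnl1 and dnc had no such peak at their first start, and peaks of the other classes there were not examined. The first start held the strongest at brwl (340.2, beside 107.5 and 99.0 at an inner one) and at CHES-1-like (192.7 and 113.8, beside 161.3 at an inner one). Some windows held more than 1 gene: 22 of the 703, among them that of Sesn, which CG46429 shares, so the peak cannot be given to one gene of the window by position.

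Over all 703 peaks, 251 were nearest an alternative start, more than 100 bp downstream of the gene's first (35.7%, Wilson 95% interval 32.2 to 39.3). First starts of genes with several starts took 154 (21.9%, interval 19.0 to 25.1), and 298 lay at genes with only 1 start (42.4%, interval 38.8 to 46.1). Among all annotated protein-coding starts outside divergent pairs, with starts of a gene within 100 bp merged, the shares were 30.7%, 15.5% and 53.8%. The alternative starts lay 2888 bp downstream of the first at the median (quartiles 1138 and 10422). Genes bound at an alternative start were longer, 14091 bp at the median, beside 7366.5 bp for first and 2765 bp for only starts. The classes themselves bear on length, since an alternative start lies inside its gene, and genes without a peak were not compared. The strongest peaks at alternative starts were those of px, ph-p and CG1888, at first starts those of GstE13, CG13921 and CG17896, and at only starts those of CG14100, CG31145 and Atf3.

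Peaks at alternative starts had the highest median signal, 112.5, beside 100.9 at first and 94.5 at only starts. The order was the same in each library: 45.0, 40.9 and 39.6 in replicate 1 and 66.0, 57.5 and 56.0 in replicate 2. The difference between first and alternative starts did not pass its test. A signal above 96.9, the median of the whole optimal list, was reached by 80 of 154 first-start peaks (51.9%) and 147 of 251 alternative-start peaks (58.6%), an odds ratio of 0.765 (95% interval 0.511 to 1.15; p = 0.216 by two-sided Fisher's exact test, 0.432 after adjustment over 2 comparisons). Compared with divergent promoters the share above the median was 52.6% against 54.3% (odds ratio 0.934, interval 0.744 to 1.17, exact p = 0.563). Above the 75th percentile of the list the direction turned, with 217 of 703 single-gene peaks (30.9%) and 133 of 521 divergent ones (25.5%), an odds ratio of 1.30 (unadjusted exact p = 0.0473).

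GAGA repeats set the promoters with a single-gene peak apart from promoters without one. In the window from 250 bp before to 50 bp after the start, 195 of 650 promoters with a peak held GAGAGA on either strand (30.0%), against 758 of 6002 promoters with no candidate peak (12.6%) and 12.3% of all 13968 protein-coding promoters. The odds ratio was 2.96 (95% interval 2.47 to 3.56; adjusted p = 1.16e-26 over 12 elements by two-sided Fisher's exact test with Benjamini-Hochberg adjustment). It was 2.07 against the 2882 promoters whose candidate failed the filter (17.2% with GAGA, adjusted exact p = 1.25e-11), 3.13 among promoters of similar GC content and 2.29 for peaks at only or first starts. GAGA was most frequent 100 to 51 bp before the start, in 12.9% of promoters with a peak and 3.47% of those with no candidate. Within 100 bp of the summit, 92 single-gene peaks held GAGA (13.1%), beside 24 of 521 divergent peaks (4.61%; odds ratio 3.12, interval 1.96 to 4.96, adjusted exact p = 3.85e-06 over 12 elements) and 11.0% of peaks away from starts. The strongest peaks with it were at px, gish and CG18549. In the windows shown above, GAGA lay 88 bp from the summit at gish, 97 bp at CG31431 and 95 bp at Ptpmeg2. By start, 45 of 251 summits at alternative starts had it (17.9%, interval 13.7 to 23.1), 14 of 154 at first starts (9.09%, 5.49 to 14.7) and 33 of 298 at only starts (11.1%, 7.99 to 15.1).

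The DRE followed another pattern. It stood at 29 single-gene summits (4.13%) and 56 divergent ones (10.7%), an odds ratio of 0.357 (interval 0.225 to 0.568; Fisher's exact test, adjusted p = 6.71e-05), and at 1 of 1196 summits away from starts. Alg3 (an enzyme of protein glycosylation, 161.0 and 198.3 in replicates 1 and 2), CG11151 (139.3 and 201.3) and eEF1gamma (an elongation factor subunit, 115.6 and 139.9) had the strongest peaks with a DRE. Of the 29, 20 lay at only starts, 7 at first and 2 at alternative starts. Promoters with a peak held it more often than promoters with no candidate, 6.62% against 4.00% (odds ratio 1.70, adjusted exact p = 0.00691). This call was lost with a window from 100 bp before the start (1.35, adjusted exact p = 0.280) and for the stronger 1210 optimal peaks (1.24, 0.683), and the odds ratio was 0.837 against promoters with a failed candidate (adjusted exact p = 0.558), and 9.36% of all promoters, divergent ones included, held it.

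The E-box, Motif 1 and TATA also passed against promoters with no candidate. The E-box CAGCTG was in 21.2% of promoters with a peak and 14.0% with no candidate (odds ratio 1.65, adjusted exact p = 1.13e-05). It was in 17.7% of all promoters. At the summits it did not pass, with 87 summits beside 77 windows centred 1000 bp away (adjusted exact McNemar p = 0.680). The share was 12.4% at these summits and 16.3% at divergent ones (Fisher's exact test, adjusted p = 0.204). The strongest peaks with an E-box within 100 bp of the summit were at Alg3, Hpf1 (a cofactor of ADP-ribosylation) and CG8036. Motif 1 (GGTCACACT) was in 4.46% against 2.10% (2.18, adjusted exact p = 0.00155). At the summits the strongest peaks with Motif 1 were at the ribosomal protein gene RpL37A, CG10068 and RpL27. TATAAA was less frequent in promoters with a peak, 36.2% against 45.8% with no candidate (odds ratio 0.670, adjusted exact p = 1.13e-05). In the 50 bp before the start, where a TATA box works, it was in 5.69% of promoters with a peak and 17.7% of those with no candidate. Against promoters with a failed candidate, of the 12 elements GAGA alone passed: the odds ratios were 1.28 for the E-box, 0.774 for Motif 1 and 0.838 for TATA (adjusted exact p = 0.144, 0.502 and 0.203).

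**Figure D3:**
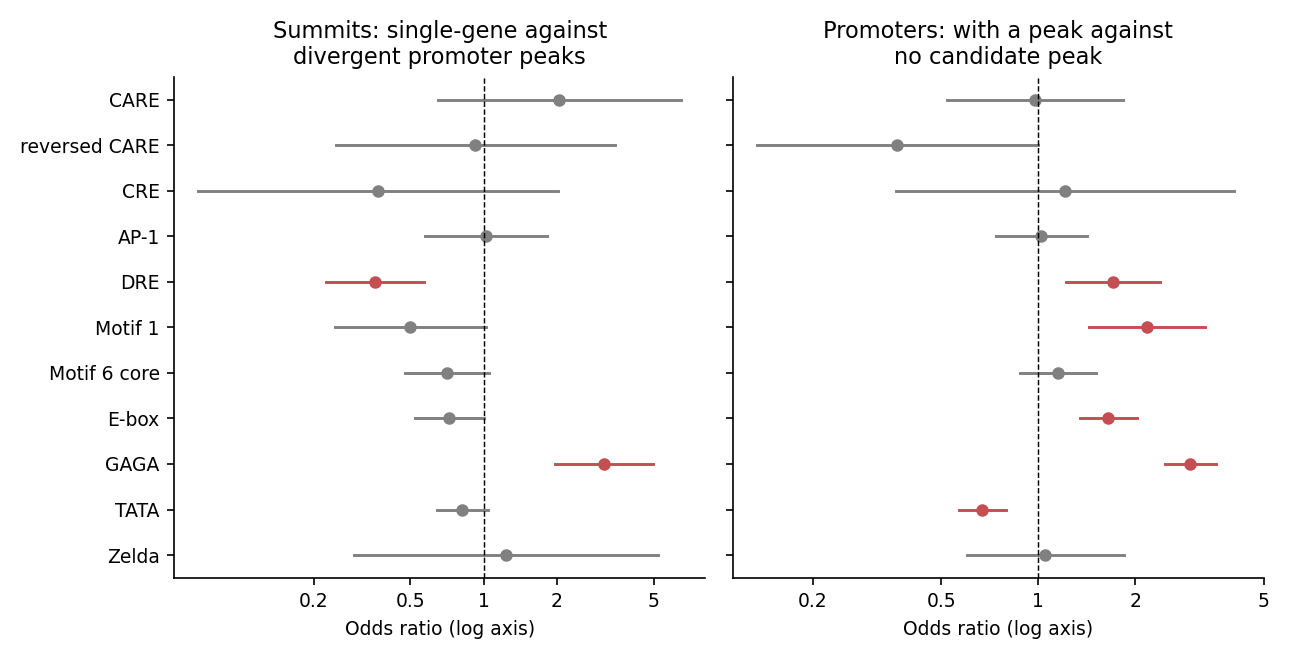
Odds ratios (log axis, with 95% intervals) for 11 of the 12 elements, at summits of single-gene against divergent promoter peaks (left) and in promoters with a single-gene peak against promoters with no candidate (right); red marks an adjusted exact p under 0.05, and the strict CARE is left out for its few cases. GAGA lies near 3 in both panels, at 3.12 and 2.96, whereas the DRE is at 0.357 on the left and 1.70 on the right.

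**Figure D4:**
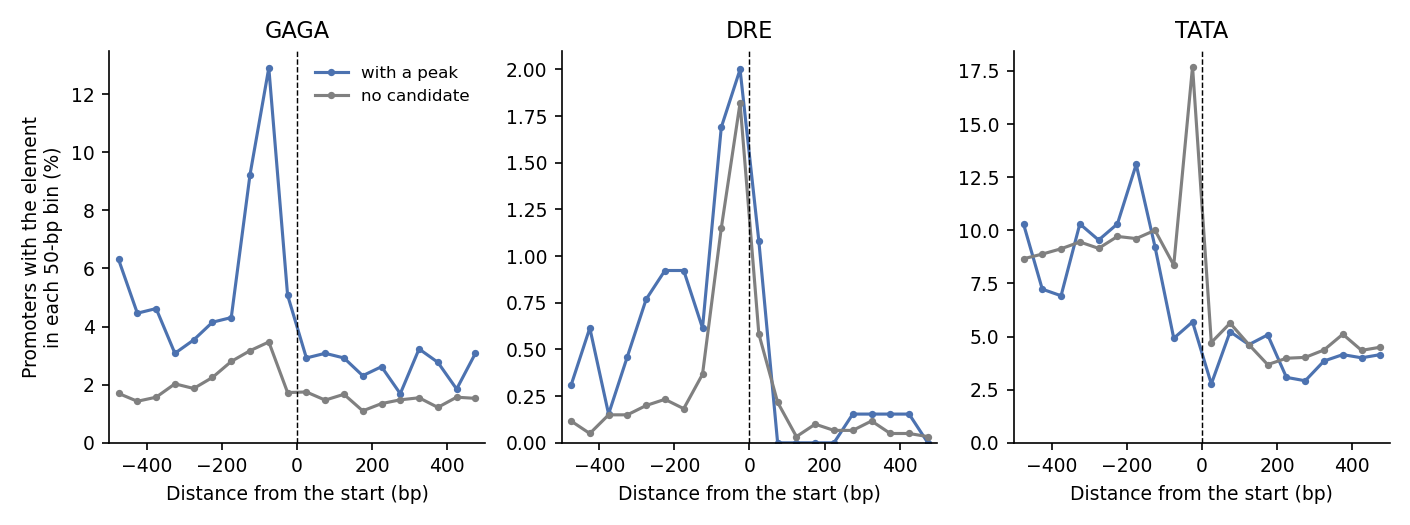
Share of promoters (y axis, %) holding GAGA, DRE or TATA in each 50-bp bin of distance from the start (x axis, bp), for 650 promoters with a single-gene peak and 6002 with no candidate. GAGA reaches 12.9% before the start in promoters with a peak, the DRE curves stay at or below 2.00%, and TATA reaches 17.7% in the last 50 bp before the start in promoters with no candidate alone.

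The CARE passed none of the comparisons. It occurred within 100 bp of 11 of 703 summits (1.56%) and in 9 flanking windows centred 1000 bp away (exact McNemar test, two-sided, p = 0.824), and the CARE read backwards, which served as a control, occurred at 5 summits and 5 flanks. Divergent summits held the CARE in 0.768% (odds ratio 2.05, interval 0.651 to 6.49, exact p = 0.295). Promoters with a peak held it in 1.69%, promoters with no candidate in 1.73% and all promoters in 1.82% (odds ratio 0.976, interval 0.522 to 1.83, exact p = 1.00). For the backward control these shares were 0.615% and 1.67% (odds ratio 0.365, exact p = 0.0436, adjusted 0.0872). The strongest peaks with a CARE were at CG1635 (132.0 and 199.1 in replicates 1 and 2), Tina-1 (77.1 and 161.5) and Jwa (56.9 and 98.5). The strict form TGATGCAAT was found at eIF2beta, CG8026 and Cenp-C (a centromere protein). Of the 11, 8 lay at only starts, 3 at first starts and 0 of 251 at alternative starts, which allows a share of up to 1.20% at a floor of 3 counts (Wilson upper limit 1.51%).

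Compared with DNA 1000 bp to one side, the summits were richer in 5 of the 12 elements. TATAAA was at 211 summits and 149 flanks (adjusted exact McNemar p = 0.00188), the DRE at 29 and 7 (0.00188), the Motif 6 core (GTATATTT or GTATTTTT) at 54 and 28 (0.0134), GAGA at 92 and 58 (0.0134) and Motif 1 at 13 and 2 (0.0177). The strongest peaks with TATAAA were at CG31145, CG13921 and Atf3, and those with the Motif 6 core at px, dnc and Hpf1. With the flank on the opposite side GAGA and the Motif 6 core did not pass (adjusted exact p = 0.231 and 0.143), and for the 370 single-gene peaks among the stronger 1210 optimal peaks 0 of the 12 did, with 3 at an unadjusted exact p under 0.05. There the ratios of summit-only to flank-only peaks, with 0.5 added to each count, were 1.64 for TATA (1.61 over all 703 peaks), 2.17 for the Motif 6 core (2.02), 3.0 for the DRE (3.93), 9.0 for Motif 1 (5.40) and 1.44 for GAGA (1.66). With the list of replicate 2 alone, Motif 1 (ratio 1.73, adjusted exact p = 1.00), the Motif 6 core (1.62, 0.169) and GAGA (1.29, 0.452) did not pass. The flanks had a higher GC content, 42.3% at the median beside 36.8% at the summits, and its part in these differences was not tested.

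Among all 8192 7-mers, 80 were more frequent at the summits (0.977%) and 55 less frequent (0.671%) after adjustment (exact McNemar tests). Of the 80, 57 held 5 or more A or T, 22 consisted of A and T alone, and 9 held the letters CAGTG. Of the 55, 24 held 2 or fewer A or T. The flanks had the higher GC content, and its part in these counts was not tested. The word ACAGTGG occurred at 65 summits (9.25%) and 16 flanks (2.28%; adjusted exact p = 9.43e-05). It was in 4.61% of divergent summits and 10.4% of summits away from starts, in 11.7% of promoters with a single-gene peak and in 3.49% of all promoters. AGCCCTG stood at 25 summits and 0 flanks (adjusted exact p = 1.21e-04), beside 7.68% of divergent summits and 1.17% away from starts. It did not pass with either replicate left out or with the opposite flank (adjusted exact p from 0.0599 to 0.0633), nor with flanks 2000 bp away (0.0523), whereas ACAGTGG passed in each of these. Both words were picked after their values were seen.

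The genes with a single-gene promoter peak served many functions. Of 9677 protein-coding genes with a start outside divergent pairs, 672 had one in the window (6.94%), and the gene lists below are read against that share, without a test. In all, 60 genes of the 21 functional lists had a peak, and 639 of the 703 peaks lay at genes outside every list. A listed gene said to have none lacks a single-gene promoter peak. Whether it held a peak at a divergent promoter or away from starts was not examined.

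Among genes of protein synthesis the lists differed. Of 38 cytosolic ribosomal protein genes outside divergent pairs, 17 had a peak (44.7%, interval 30.1 to 60.3). RpL23A had signals of 139.6 and 135.7 in replicates 1 and 2, RpL22 99.1 and 74.7, and RpL30 62.7 and 104.6. All 17 were found in both libraries. RpL10 and RpL10Aa were among those without one. Of 31 translation factor genes, 6 had a peak, led by eIF6 (a factor of the large ribosomal subunit, 137.1 and 211.0), eEF1gamma (115.6 and 139.9) and eEF2 (the translocation factor, 35.9 and 58.3). Of 11 aminoacyl-tRNA synthetase genes, which charge tRNAs, CysRS had one (34.0 and 46.6), and AlaRS and AspRS-m did not. None of 15 mitochondrial ribosomal protein genes, 40 respiratory chain genes or 13 proteasome genes had one (intervals 0 to 20.4, 0 to 8.76 and 0 to 22.8). These intervals, and that of the synthetases (1.62 to 37.7), include the 6.94% of all genes.

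Of 14 ATF4 targets and regulators, 6 had a peak (42.9%, interval 21.4 to 67.4), and each was at an only start. Atf3 had signals of 219.5 and 309.0 in replicates 1 and 2, Sesn 172.5 and 316.4, and aay (phosphoserine phosphatase of serine synthesis) 92.5 and 172.7. Thor (the 4E-BP that blocks cap-dependent translation) had 53.1 and 42.1, scyl (a TOR inhibitor of the REDD family) 30.2 and 30.4, and eIF2beta 11.4 and 52.2. Atf3 and Sesn were the strongest of the 6 in each library, and the weakest was eIF2beta in replicate 1 and scyl in replicate 2. In the same list crc itself and the eIF2 kinase gene PEK had none. The element known for ATF4 was absent within 100 bp of these summits except at eIF2beta. In the unfolded protein response, Xbp1 (the factor activated by Ire1 splicing, 44.1 and 73.1) and Cnx99A (calnexin, 25.2 and 43.7) made 2 of 9, without Hsc70-3 and Pdi. Of 14 bZIP factor genes 4 had a peak: Atf3 and Xbp1, given above, vri (vrille, of the circadian clock, 27.9 and 54.0) and Pdp1 (none in replicate 1, 52.5 in replicate 2).

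Growth and sugar metabolism were also represented. Of 14 insulin and TOR genes, 6 had a peak (42.9%), among them sgg (the kinase GSK3, 96.3 and 183.4), melt (melted, an adaptor of this pathway, none in replicate 1, 118.5 in replicate 2), Pi3K21B (the PI3K adaptor, 55.5 and 85.2), InR (the insulin receptor, 58.0 and 50.2) and Thor. The kinase gene Akt and the adaptor gene chico did not. Of 9 glycolytic genes, 5 had one (55.6%, interval 26.7 to 81.1). Gapdh2 had 101.8 and 277.1, Hex-A (hexokinase) 100.6 and 155.6, Pgk 71.1 and 99.7, Ldh (lactate dehydrogenase) 19.8 and 96.8 and PyK (pyruvate kinase) 36.2 and 60.1. The weakest of the 5 was Ldh in replicate 1 and PyK in replicate 2, and Pfk and Ald1 had none. Of 19 heat shock genes, Hsp27 (83.9 and 155.2) and Hsp26 (58.3 and 111.3) had a peak, and Hsp110 and Hsp22 did not.

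Of 9 insulator and promoter factor genes, 5 had a peak (55.6%, interval 26.7 to 81.1). Trl, whose GAGA factor binds the element described above, had 50.6 and 89.9 in replicates 1 and 2. The gene lolal, whose product binds the GAGA factor, had 39.4 and 71.5, row 39.0 and 64.6, BEAF-32 (boundary element factor) 28.8 and 57.1, and psq (pipsqueak, another GAGA-binding protein) 48.5 and 16.1. The psq peak came next to Trl in replicate 1 and was the weakest of the 5 in replicate 2. CTCF and mod(mdg4) had none. The Polycomb and trithorax list had a peak at ph-p alone of 11 genes, and its signal of 861.5 was the highest of any listed gene. Its summit lay 487 bp before an alternative start, itself 1516 bp downstream of the first. At a start distance of 250 bp no gene of this list had a peak. Psc and ph-d had none.

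Lists of developmental regulators ranged from 0 to 10.5%. None of 28 segmentation and Hox genes had a single-gene promoter peak (interval 0 to 12.1, which includes the 6.94% of all genes), bcd and hb among those without, and none of 103 odorant and gustatory receptor genes. Of 24 signalling genes, spi (the EGF receptor ligand Spitz, 125.6 and 156.9) and Stat92E (50.1 and 46.1) had one, without N and Delta. Of 19 nuclear receptor and ecdysone genes, Eip75B (95.2 and 172.5) and Hnf4 (24.1 and 52.6 at the stronger of its peaks) did, and EcR and usp did not. Dp, the partner of E2F (77.5 and 116.9), and CycG (none in replicate 1, 48.1 in replicate 2) stood for 16 cell cycle genes. The integrin gene if (29.0 and 43.6) and Act5C (36.7 and 33.4) stood for 13 genes of actin and adhesion, and Atg8a (19.5 and 65.4) for 6 autophagy genes. Of the genes that mark cell types, 1 of 4 had a peak for neurons (elav, 103.2 and 189.3, without nSyb and brp) and 1 of 3 for glia (moody, 110.2 and 185.0, without repo and gcm). The count was 1 of 4 for muscle (sls, a pooled signal of 88.5, without Mhc and Mef2) and 1 of 4 for haemocytes (ush, 29.3 and 32.6, without srp and Hml). It was 1 of 2 for the gut (fkh, 92.1 and 90.8, without GATAe) and 2 of 3 for the fat body (Lpin, 93.9 and 131.8, and FASN1, 30.3 and 42.4, without Lsp2). Of the trachea markers 0 of 2 had one, and of the germ line markers outside divergent pairs 0 of 1.

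**Figure D5:**
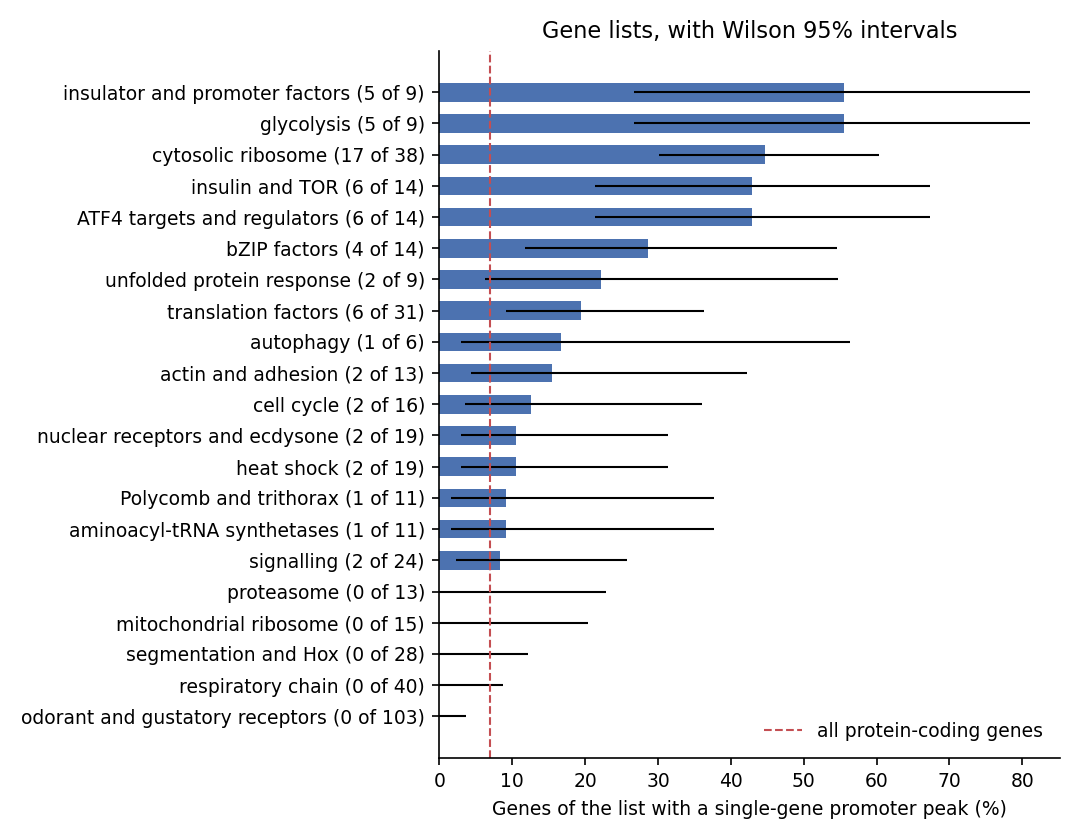
Share of genes of each functional list with a single-gene promoter peak (x axis, %), with Wilson 95% intervals as black lines and, in brackets, the genes with a peak of those outside divergent pairs; the dashed line marks all protein-coding genes, 6.94%. Insulator and promoter factors and glycolysis are at 55.6%, the cytosolic ribosome at 44.7%, and 5 lists are at 0.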

How the data were processed

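The authors deposited peak lists, not reads. Each list gives a signal value per peak, made by the authors' peak caller; caller, aligner and normalization are not stated in the sources used here. The deposited −log10 q values were not used. Candidates were deposited for each replicate (30000 each) and for the pooled reads (24369); the optimal list is what passed the irreproducible discovery rate filter on the pooled call, so its peaks are not separate measurements per replicate. Signals of the lists differ in scale: they are given side by side, and ordered within a list only. The dm3 lists were not used. Replicate candidates were called against a control alignment, per the labels' file listing.

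Gene starts came from Ensembl (BDGP6.54, release 115), and sequence came from the RefSeq copy of Release 6 (dm6). A peak went to the nearest start. Elements and 7-mers were searched on both strands, 1 hit or more counting once, in windows reaching 100 bp either way from the summit, in 1 such window 1000 bp away on a side drawn with a fixed seed, or from 250 bp before to 50 bp after a start, 1 start per gene (the bound start, or the most upstream one for genes with no candidate). E-box, GAGA and TATA can overlap other matches, and the strict CARE is contained in the CARE. Tests were two-sided, Fisher's exact for shares and exact McNemar for pairs, with Benjamini-Hochberg adjustment over 12 elements or 8192 7-mers at 0.05. They were tested on simulated data, random bases of the same composition in both sets with a planted element or 7-mer. Sets that differ in GC content were not simulated.

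Members, gene lists and tests were chosen with earlier results of these data known. Genes were named by rule: the 15 strongest and 3 weakest peaks, and genes with the most peaks or nearest the limits. The rule also took the 3 strongest of each kind of start, list and element or missing from a replicate. Up to 2 genes of a list without a single-gene promoter peak were named too. Genes of a list beyond its 3 strongest were named after their values were seen. The values of 1 listed gene are not reported here. Alternatives covered distances, annotation, window, flank, GC content, the stronger 1210 peaks and each replicate alone, with its 2420 strongest candidates. Python 3.11.15, numpy 2.4.6, scipy 1.17.1 and matplotlib 3.10.9 were used.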

Additional observations from a re-analysis of the deposited data

How the results depend on the processing

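Counts and shares moved mostly with the limits chosen. The single-gene promoter peaks numbered 467 at a 250 bp start distance, 664 with a divergent partner of any gene type, and 687 to 691 with 1 replicate alone. The share at alternative starts was 31.0% at 250 bp and 39.7% of the 370 single-gene peaks among the stronger 1210 optimal peaks. The share of peaks found in both replicates was 73.0% within 50 bp and 99.7% within 200 bp. The odds ratio of signal against divergent peaks, 0.934, turned to 1.30 above the 75th percentile and 1.03 with a pair limit of 2000 bp, and ran from 0.994 to 1.15 with one replicate alone (exact p from 0.0473 to 1.00 over these). Elements past the test against the flank, 5 at first, were 2 in a 50 bp window, 0 for those 370 peaks, where 3 had an unadjusted exact McNemar p under 0.05 and the ratios of the 5 ran from 1.44 to 9.0 (1.61 to 5.40 over all 703), 3 with the opposite flank, an alternative chosen after seeing the data like the restrictions to only or first starts and to windows with 1 gene, and 2 to 5 with one replicate alone. Against divergent peaks 2 passed, 4 with a pair limit of 500 bp and 3 to 4 with one replicate alone. Against promoters with no candidate 5 passed, 3 in the stronger peaks, and 1 against promoters with a failed candidate, where the DRE (0.837) and Motif 1 (0.774) turned. The 7-mers past the test, 135, were 345 with a flank at 2000 bp, 311 among 6-mers and 8 among 8-mers, and 61 to 96 with one replicate alone; without replicate 1, 53 of the 135 were called again, and without replicate 2, 43. GAGA kept its direction and its call against divergent peaks and against promoters under all alternatives run, with odds ratios from 2.33 to 4.51 and from 2.07 to 3.40. First starts all belong to genes with several starts, so restricting that comparison to such genes changed nothing. No paired analysis was possible because the data hold 1 group. Read depth is unknown, so weak peaks may be missing from either library.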
